A study of Schmidtea mediterranea with 64 samples.

Results

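The transcripts described here are 164 transcript IDs of X1 cells that were higher after 6 days of *set1*(RNAi) and higher after 9 days, chosen from 12231 IDs that passed the level filter and 28173 IDs listed in any table of the series. X1 cells are the fraction of planarian cells with replicated DNA, isolated by Hoechst staining and flow cytometry, and consist largely of cycling neoblasts, the stem cells of the worm. Members were chosen from RPKM values (reads per kilobase of transcript, scaled to library depth) in 2 steps. An ID needed a mean of at least 1 RPKM over the 16 X1 libraries of the *set1* experiment and over the 16 X1 libraries of the *mll1/2* experiment. Its mean log2(RPKM + 0.5) in the 4 *set1*(RNAi) libraries then had to exceed that of the 4 control libraries by at least 0.8 on day 6 and by at least 1 on day 9. The weakest day 6 change among the members was 0.81, and the strongest among IDs that failed at that step was 0.80. On day 9 the corresponding changes were 1.00 and 0.99.

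The study knocked down 2 genes in *Schmidtea mediterranea* by RNAi feeding, in which worms ate liver paste with bacteria that make double-stranded RNA. The groups were *set1*(RNAi) for 6 or 9 days and *mll1/2*(RNAi) for 9 or 12 days, each set against *unc22*(RNAi) worms of the same experiment, day and tissue, and each profiled as X1 cells and as whole worms. There were 64 polyA RNA libraries in 16 groups of 4. The labels give neither the strain nor the age of the worms, and they do not say that replicates came from separate cultures of worms, so p-values measure the spread between these libraries, which may be technical. *unc22* is a *Caenorhabditis elegans* muscle gene used as a control that targets no planarian gene.

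Set1 and MLL1/2 are methyltransferases that act in protein complexes and place methyl groups on lysine 4 of histone H3. The trimethylated form of this mark lies at the promoters of transcribed genes. In planarians, neoblasts are the only dividing somatic cells, and all other cell types are renewed from them. The deposited tables give IDs without gene names and no annotation or sequence was used here, so the roles of the members are not given, the fall of *set1* and *mll1/2* themselves was not checked, and the X1 identity of the libraries could not be tested on marker genes.

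The libraries of the 2 X1 tables held 12.6 to 18.3 M (*set1* experiment) and 9.50 to 14.4 M (*mll1/2* experiment) mapped reads, and those of whole worms 16.4 to 20.8 M and 16.4 to 22.5 M, recovered from the step size of the RPKM values. In the X1 cells of the *mll1/2* experiment, replicates 2, 3 and 4 of *unc22*(RNAi) on day 12 stood apart from the other libraries on the first principal component, which held 37.1% of the variance. These 3 libraries lay at -49.5, -74.9 and -52.6 and the others between -12.9 and 26.0. Counts of calls in *mll1/2* X1 cells are therefore given with and without them. The fit without them keeps 1 control library on day 12, assumed to vary like the other groups, so a call lost in that fit does not show that the 3 libraries carry the change. In the whole worms of the same experiment, *unc22*(RNAi) replicate 1 of day 12 had a member level of its own, as described below.

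The members were short and scarce. Their median length, solved from the RPKM steps, was 540 bases, against 1207 bases for all 12231 IDs, and 74 of 164 (45.1%) were shorter than 500 bases, against 1514 of 12231 (12.4%). Among the 3058 shortest IDs 115 were members (3.76%), and among the 3058 longest 7 were (0.229%). The 269 IDs that passed the same thresholds in the lower direction had a median of 809 bases. The median *unc22*(RNAi) level of the members in X1 cells was 2.63 RPKM in the *mll1/2* experiment, against 9.34 RPKM for all 12231 IDs. For the 331 IDs past the day 9 threshold but not that of day 6 it was 2.34 RPKM. A low level was thus not particular to the members. In the *set1* experiment 138 of 164 reached a mean of 1 RPKM in the 8 control libraries of X1 cells alone, so 26 passed the filter only through the knockdown libraries. A median member was covered by 16.5 to 23 reads in a control X1 library of that experiment, which sets a large counting error on any single member.

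**Figure D1:**
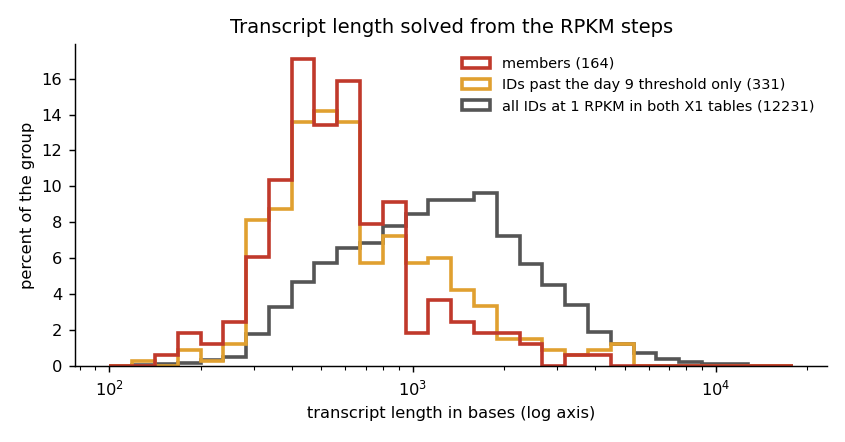
Distribution of transcript length (bases, log axis) as percent of each group, for the 164 members, the 331 IDs past the day 9 threshold only and all 12231 IDs that passed the level filter. The members and the day 9 group peak near the same length, and their medians of 540 and 589 bases lie below the 1207 bases of all IDs.

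Control levels separated the members into transcripts of the whole worm and transcripts of X1 cells. Classes were set, after the values were seen, from the *unc22*(RNAi) libraries of the *mll1/2* experiment, which did not enter the choice of members except through the level filter. Whole-worm and X1 tables may have been scaled apart, so the classes rank IDs and do not give an absolute ratio. At least 8-fold higher in whole worms than in X1 cells were 28 of 164 members (17.1%), against 1003 of 12231 IDs (8.20%). These worm-rich members had a median of 208 RPKM in whole worms and 2.92 RPKM in X1 cells. At least 2-fold lower in whole worms than in X1 cells were 50 members (30.5%), against 3990 IDs (32.6%). These X1-rich members had a median of 0.750 RPKM in whole worms and 4.75 RPKM in X1 cells. Between the classes lay 60 members (36.6%), against 7003 IDs (57.3%). The other 26 members (15.9%) were not listed in the whole-worm table of the *mll1/2* experiment, against 235 IDs (1.92%). The shares of members that were worm-rich or not listed thus lay above those of all IDs. The X1-rich share lay near that of all IDs. Among the IDs past the day 9 threshold but not that of day 6, 29.6% were worm-rich, 24.2% X1-rich and 9.67% not listed. Worm-rich and not-listed shares above those of all IDs were therefore not particular to the members. The difference in shares between these IDs and the members was not tested.

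**Figure D2:**
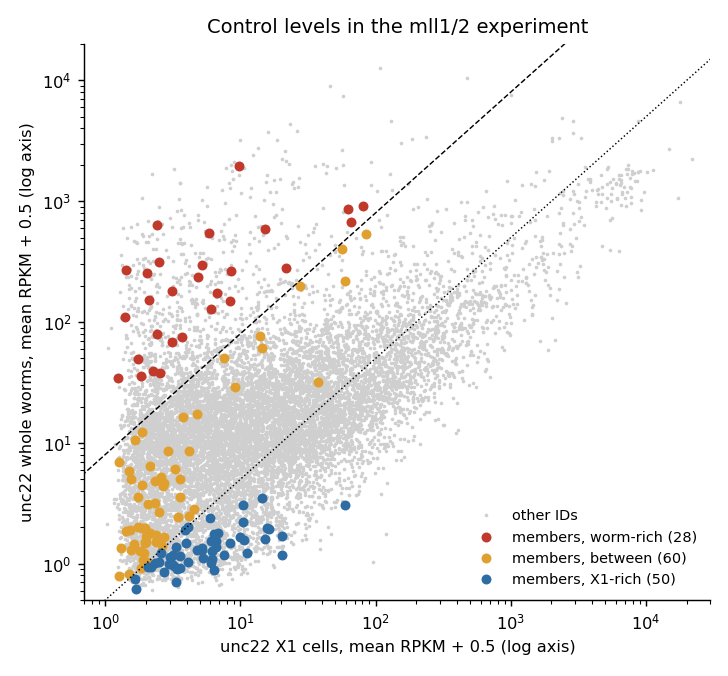
Mean RPKM + 0.5 of *unc22*(RNAi) whole worms (vertical, log axis) and *unc22*(RNAi) X1 cells (horizontal, log axis) of the *mll1/2* experiment, 1 point per ID listed in both tables. Members are coloured by class, with the 8-fold line dashed and the 2-fold line dotted. The 28 worm-rich members lie above the dashed line and the 50 X1-rich members below the dotted line.

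In X1 cells of the *set1* experiment, the contrast used to choose the members, the changes are given as a description. The median change of the 164 members was 1.03 on day 6 and 1.48 on day 9 (log2 scale), with highest values of 2.35 and 3.14. Without a pseudocount the median ratio of mean RPKM was 2.32-fold on day 6 and 3.29-fold on day 9. The change was larger on day 9 than on day 6 in 149 members and smaller in 15, and in 16 members it was larger by at least 1. limma, a linear model fitted to all IDs of a table with Benjamini-Hochberg adjusted p below 0.05 as the call, called 144 of 164 members higher on day 6, where 6.64% of all 13503 IDs tested were called higher. On day 9 it called 156 members higher, where the share over all IDs was 18.0%. All 4 *set1*(RNAi) libraries lay above all 4 *unc22*(RNAi) libraries for 134 members on day 6 and 146 on day 9, against 8.78% and 15.7% of all IDs. These counts follow from the choice of the members.

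The median of the members in each library, taken relative to the mean of the 8 control libraries, was 1.12, 1.11, 1.18 and 1.12 in *set1*(RNAi) X1 libraries of day 6, against 0.07, 0.08, 0.04 and 0.06 in *unc22*(RNAi) libraries. On day 9 it was 1.52, 1.51, 1.44 and 1.49 after *set1*(RNAi), against -0.30, 0.07, -0.08 and 0.02 after *unc22*(RNAi). Control library a of day 9 was the low one. The libraries of this table are named a to d, because their column names give the RNAi and the day but not the sample.

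**Figure D3:**
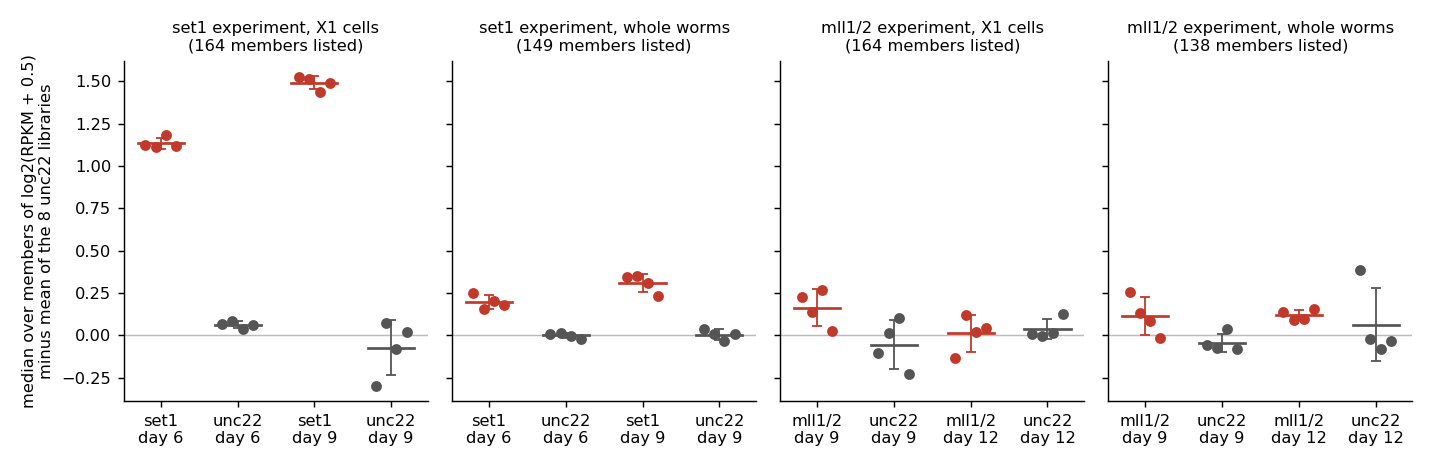
Median over the listed members of log2(RPKM + 0.5) minus the mean of the 8 *unc22*(RNAi) libraries of the table, 1 point per library, with the mean and SD of each group of 4. The *set1*(RNAi) libraries lie above their controls in X1 cells, by the choice of members, and in whole worms, where they lie between 0.16 and 0.35 and the controls between -0.04 and 0.04.

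By class, median changes on day 9 were 1.59 for the worm-rich, 1.47 for the intermediate, 1.41 for the X1-rich and 1.52 for the members not listed in whole worms. On day 6 all 4 *set1*(RNAi) libraries exceeded all 4 controls for 47 of 50 X1-rich members and for 18 of 28 worm-rich members. These counts come from the contrast that chose the members. The shares over all IDs of each class are not given, and a difference between the classes was not tested. Among the 975 worm-rich IDs that were not members the median change was 0.16 on day 6 and 0.29 on day 9, and 669 (68.6%) had a positive change on day 9. For the 3940 X1-rich IDs that were not members the medians were -0.09 and -0.09. The summed level of the 975 IDs was 8234 to 10139 RPKM in *set1*(RNAi) X1 libraries of day 6, against 7501 to 8379 RPKM in *unc22*(RNAi) libraries, with overlap. On day 9 it was 7818 to 9150 RPKM, against 5988 to 7619 RPKM, without overlap. Their part in the rise of the worm-rich members was not tested, and in bulk libraries more cells of a type and more RNA per cell cannot be told apart.

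In whole worms, a tissue the choice of members did not use, *set1*(RNAi) raised a part of the members by small amounts. Of the 164 members 149 were listed in this table and 87 were tested, since 62 lay under a mean of 1 RPKM. On day 6 limma called 20 of the 87 higher (23.0%) and 2 lower, where 5.91% of all 19655 IDs were called higher and 10.6% lower. On day 9 it called 37 of the 87 higher (42.5%) and 7 lower, where the shares over all IDs were 19.2% and 22.9%. The median change of the 87 members was 0.19 on day 6 and 0.20 on day 9, against -0.000973 and 0.01 for all IDs, and 66 of 87 had a positive change on each day. Among the members called higher, 3 reached a 2-fold rise on day 9 and none did on day 6, on the log2 scale with the pseudocount. That scale understates the change of low transcripts. Without a pseudocount, ratios of mean RPKM over the 149 listed members, those under the filter included, were 0.431 to 6.62 on day 6. On day 9 they were 0.309 to 9.37. The 37 members called higher on day 9 had a median change of 0.57. All 4 *set1*(RNAi) libraries lay above all 4 controls for 19 of the 87 on day 6, where this held for 8.01% of all IDs, and below them for 4, where it held for 12.2%. On day 9 they lay above for 33 members, against 16.8% of all IDs, and below for 6, against 20.3%.

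The filter let 9 of the 87 pass through the knockdown libraries alone. A filter on the controls kept the other 78 and added 1 member that lay under the filter on all libraries. Among these 79, limma called 16 higher and 2 lower on day 6, and 32 higher and 7 lower on day 9. The shares of all IDs called under that filter are not given beside these counts. Scaling the libraries to equal medians raised the share of all IDs called higher to 11.9% on day 6 and 28.0% on day 9, with 7.19% and 17.4% called lower, so the split of all IDs depends on the scaling. The members under the same scaling were 26 higher and 1 lower on day 6, and 43 higher and 5 lower on day 9.

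The 331 IDs past the day 9 threshold but not that of day 6 had 229 tested in whole worms, of which 55 (24.0%) were called higher on day 6 and 115 (50.2%) on day 9. Their median changes were 0.11 and 0.24. The difference between these IDs and the members was not tested. The 269 IDs that fell past both thresholds in X1 cells had median changes of -0.38 and -0.53 in whole worms.

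Per library, the median over the 149 listed members was 0.25, 0.16, 0.20 and 0.18 in *set1*(RNAi) whole worms of day 6, against 0.01, 0.02, -0.00311 and -0.02 in *unc22*(RNAi) worms. On day 9 it was 0.35, 0.35, 0.31 and 0.23 after *set1*(RNAi), against 0.04, 0.01, -0.04 and 0.01 after *unc22*(RNAi). The groups did not overlap on either day. The library medians of X1-rich members lay above those of worm-rich members in these knockdown worms, a difference between classes that was not tested. For the 48 X1-rich members listed, the library medians were 0.28 to 0.47 on day 6 and 0.44 to 0.55 on day 9, against -0.07 to 0.10 in the 8 controls. For the 28 worm-rich members they were 0.03 to 0.16 on day 6 and 0.04 to 0.26 on day 9, against -0.05 to 0.03 in the 8 controls. The 975 worm-rich IDs that were not members had library medians of 0.05 to 0.07 on day 6 and 0.11 to 0.16 on day 9. Their controls lay between -0.02 and 0.03. A small rise of worm-rich IDs in these worms was therefore not particular to the members.

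**Figure D4:**
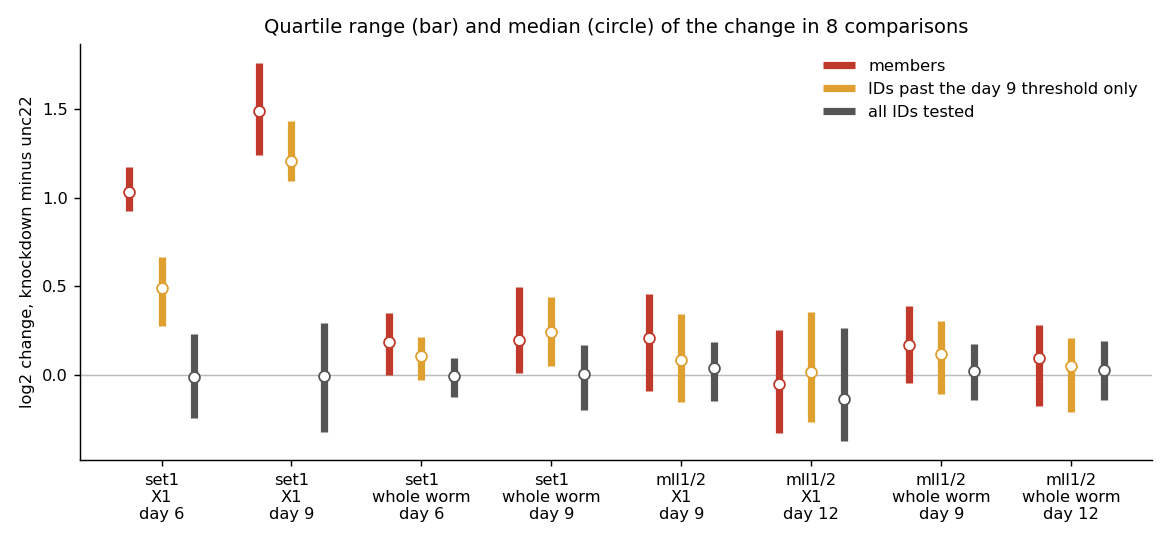
Median (circle) and quartile range (bar) of the log2 change, knockdown minus *unc22*(RNAi), in 8 comparisons, for the members, the 331 IDs past the day 9 threshold only and all IDs tested. Outside the *set1* X1 comparisons that chose them, the medians of the members lie between -0.05 and 0.21.

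Of the 20 members called higher on day 6 in whole worms 18 were called higher on day 9 as well, and of the 1162 IDs called higher on day 6 919 (79.1%) were. Of the 87 members tested, 18 (20.7%) were called higher on both days, against 4.68% of all 19655 IDs, and 19 (21.8%) were called higher on day 9 alone, against 14.6%. There were 2 called lower on both days, against 9.40% of all IDs, and none was called in opposite directions, against 0.122%. The effect of *set1*(RNAi) differed between day 9 and day 6, tested as an interaction in limma, for 14 of the 87 members, more positive on day 9 in 9 and more negative in 5, against 3.14% and 5.25% of all IDs. All 9 had a positive change on day 9 and all 5 a negative one. limma called none of the 87 members between *unc22*(RNAi) worms of day 9 and day 6, where it called 0.0305% of all IDs. At an unadjusted p below 0.05, 5 were higher and 9 lower on day 9, a description given without the share over all IDs. The other test run, voom on the recovered reads, also called none of the members.

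SMED30011925, a transcript of 775 bases, had the largest mean change over both days in whole worms among members called higher on day 9 whose groups did not overlap. Whole worms held 2.82, 1.47, 1.06 and 1.43 RPKM after 6 days of *set1*(RNAi), against 0.798, 1.04, 0.761 and 0.836 RPKM after *unc22*(RNAi). On day 9 they held 3.29, 4.38, 2.39 and 3.47 RPKM, against 0.695, 0.846, 0.550 and 0.917 RPKM. All *set1*(RNAi) worms were above all controls on both days, narrowly so on day 6. The log2 change was 0.64 ± 0.20 (SE, n = 4 per group; limma adjusted p = 0.0365) on day 6 and 1.62 ± 0.20 on day 9 (limma adjusted p = 4.2e-06), and the difference between the days was 0.98 ± 0.28 (limma adjusted p = 0.0383). The day 6 call was lost in 6 of the 8 fits that left out 1 library, with adjusted p up to 0.117, and the difference between the days was lost in 13 of 16 such fits, with adjusted p up to 0.081. The whole-worm values rest on 9 to 67 reads per library. In *mll1/2*(RNAi) worms the changes were 0.44 on day 9 and 0.45 on day 12 and did not pass (limma adjusted p = 0.104 and 0.107).

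SMED30028981, of 465 bases, had the lowest mean change over both days in whole worms among members called lower there, in the direction opposite to its change in X1 cells. Whole worms of day 9 held 0.998, 0.980, 1.11 and 0.340 RPKM after *set1*(RNAi), against 3.73, 1.95, 2.44 and 2.94 RPKM after *unc22*(RNAi). X1 cells of that day held 3.69, 4.09, 2.86 and 0.968 RPKM after *set1*(RNAi), against 0.320, 1.27, 0.438 and 1.74 RPKM after *unc22*(RNAi). The groups did not overlap in whole worms and did overlap in X1 cells. On day 9 the whole-worm values rest on 3 to 10 reads per library after *set1*(RNAi) and 18 to 29 after *unc22*(RNAi). The whole-worm log2 change fell by 0.67 ± 0.21 on day 6 (SE, n = 4 per group; limma adjusted p = 0.0392) and by 1.28 ± 0.21 on day 9 (limma adjusted p = 9.79e-05). The day 6 call was lost in 6 of the 8 fits without 1 library, with adjusted p up to 0.122. After *mll1/2*(RNAi) the X1 level on day 9 was 2.71, 2.84, 3.41 and 2.24 RPKM, against 1.95, 0.983, 0.635 and 1.60 RPKM, a change of 0.93 ± 0.30 that did not pass (limma adjusted p = 0.104), with groups that did not overlap. Without the 3 control libraries that stand apart it passed (limma adjusted p = 0.0463).

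In X1 cells after *mll1/2*(RNAi), few members were called. On day 9 limma called 5 of 164 members higher and none lower, where 0.663% of all 12525 IDs were called higher and 3.35% lower. The calls ranged from 0.63 to 1.17 on the log2 scale. The median change of the members was 0.21, against 0.04 for all IDs, and 115 of 164 were positive. At an unadjusted p below 0.05, 25 members were higher and 4 lower. The share over all IDs at that threshold is not given, so this count is only a description. All 4 *mll1/2*(RNAi) libraries lay above all 4 controls for 14 members, against 4.69% of all IDs, and below them for 4, against 6.08%. Without the 3 control libraries of day 12 that stand apart, which affect day 9 only through the shared estimate of spread, the count was 8, and leaving out 1 library gave 1 to 8. It was 1 without *unc22*(RNAi) replicate 2 or 4, 2 without *mll1/2*(RNAi) replicate 1, 3 or 4, and 8 without *unc22*(RNAi) replicate 3.

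On day 12 limma called 5 members higher and 8 lower (3.05% and 4.88% of the members), where 13.2% of all IDs were called higher and 15.1% lower. Their median change was -0.05, against -0.13 for all IDs, and it was 0.14 once the trend of the change with transcript length was removed. All 4 *mll1/2*(RNAi) libraries lay above all 4 controls for 4 members, against 9.86% of all IDs, and below them for 7, against 13.6%. With 1 control left, the fit without control replicates 2, 3 and 4 called 2 members higher and 2 lower, where 6.40% and 3.94% of all IDs were called. Removal of the length trend gave 7 higher and 3 lower. Leaving out single libraries gave 5 to 16 calls. There were 5 without *mll1/2*(RNAi) replicate 1, 8 without its replicate 2, 7 without its replicate 4 and 8 without *unc22*(RNAi) replicate 2. The *mll1/2* effect differed between day 12 and day 9 for 4 members, all lower on day 12, where 3.17% of all IDs were called higher and 3.12% lower. That count was 0 to 14 with 1 library left out, 14 of them without *unc22*(RNAi) replicate 1 of day 12. Between *unc22*(RNAi) X1 cells of day 12 and day 9 limma called 9 members higher and 2 lower, against 14.9% and 7.90% of all IDs. With 1 day 12 control left, neither contrast between the days called a member or any other ID, so that fit says nothing of the members. Without *unc22*(RNAi) replicate 3 of day 12 alone the contrast of the controls also called none of the members, and without replicate 1 it called 28.

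The member median by library was 0.23, 0.14, 0.27 and 0.02 on day 9 after *mll1/2*(RNAi), against -0.11, 0.02, 0.10 and -0.23 after *unc22*(RNAi). On day 12 it was -0.14, 0.12, 0.02 and 0.04, against 0.01, -0.000973, 0.02 and 0.13. Both pairs of groups overlapped. The classes of members were defined from these controls and were not compared here.

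SMED30027307, of 947 bases, was the member with the highest control level in X1 cells of the *mll1/2* experiment. X1 cells of day 9 held 26.7, 42.6, 15.5 and 44.0 RPKM after *mll1/2*(RNAi), against 8.50, 21.4, 27.8 and 9.11 RPKM after *unc22*(RNAi). On day 12 they held 203, 347, 239 and 261 RPKM, against 113, 60.2, 95.2 and 338 RPKM. Both groups were thus several times higher on day 12, and the control libraries alone changed by 3.01 ± 0.46 between the days (SE, n = 4 per group; limma adjusted p = 0.0114), against 2.90 ± 0.58 with 1 day 12 control left (limma adjusted p = 0.929) and 3.12 ± 0.50 without replicate 3 alone (limma adjusted p = 0.0514). The size of the change thus stayed while the call was lost. The change after *mll1/2*(RNAi) was 0.99 ± 0.46 on day 9 and 1.08 ± 0.46 on day 12 and did not pass (limma adjusted p = 0.367 and 0.0885). In X1 cells of the *set1* experiment the libraries spanned 3.04 to 26.0 RPKM on day 6 and 16.1 to 55.6 RPKM on day 9 after *set1*(RNAi), against 1.48 to 11.3 and 1.26 to 13.4 RPKM after *unc22*(RNAi). Whole worms held 508 to 622 RPKM after *set1*(RNAi) and 502 to 547 RPKM after *unc22*(RNAi). The whole-worm change was -0.02 ± 0.05 on day 6 and 0.18 ± 0.05 on day 9 (limma adjusted p = 0.00903), a call that was lost with quantile normalisation (limma adjusted p = 0.169).

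For 148 of 164 members the *unc22*(RNAi) level in X1 cells was within 2-fold between experiments, 10 were more than 2-fold higher in the *mll1/2* experiment and 6 more than 2-fold lower. Of these 16, 10 were worm-rich members. The scales of the tables may differ.

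SMED30022171, of 183 bases, had the lowest mean change over both days in X1 cells after *mll1/2*(RNAi) among the members called lower there. On day 12 X1 cells held 2.57, 2.48, 4.54 and 1.81 RPKM after *mll1/2*(RNAi), against 4.26, 8.72, 3.79 and 7.66 RPKM after *unc22*(RNAi), with 4 to 17 reads per library. The groups overlapped. The log2 change fell by 0.96 ± 0.33 (SE, n = 4 per group; limma adjusted p = 0.0399), and the call was lost in 5 of the 8 fits that left out 1 library. Against the 1 control left without replicates 2, 3 and 4 it was -0.57 ± 0.49 (limma adjusted p = 0.473). On day 9 the change was -0.59 ± 0.33 and did not pass (limma adjusted p = 0.509). In whole worms it lay under the filter of the *set1* table, with 0.843 to 2.85 RPKM after *set1*(RNAi) and 0 to 0.827 RPKM after *unc22*(RNAi) over both days. These values rest on 3 to 9 reads and 0 to 3 reads per library and were not tested.

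**Figure D5:**
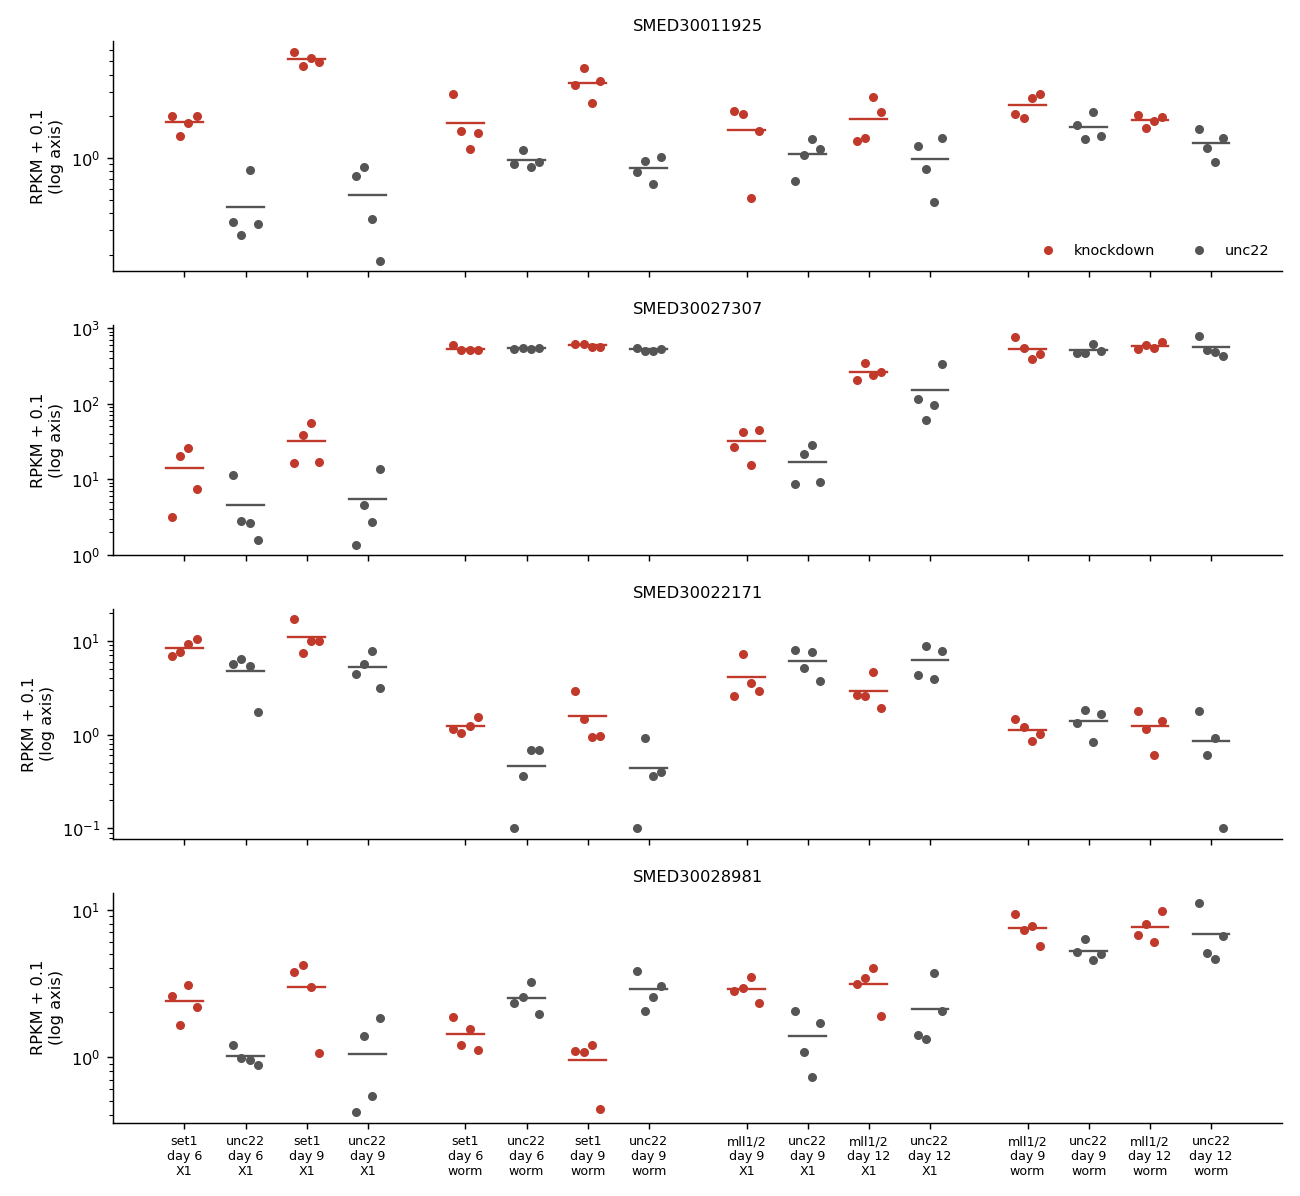
RPKM + 0.1 (log axis) of the 4 named transcripts in every library, *set1*(RNAi) or *mll1/2*(RNAi) in red and *unc22*(RNAi) in grey, with bars at the group means, by experiment, tissue and day. The mean of SMED30028981 is above that of the controls in *set1*(RNAi) X1 cells and below it in *set1*(RNAi) whole worms, and the X1 level of SMED30027307 spans 1.26 to 347 RPKM while its lowest whole-worm level is 390 RPKM.

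Whole worms after *mll1/2*(RNAi) showed calls in both directions. The table listed 138 of the members and 93 were tested. On day 9 limma called 13 of the 93 higher (14.0%) and 5 lower, where 4.01% of all 18443 IDs were called higher and 5.06% lower. On day 12 it called 6 higher and 4 lower, where 2.57% and 3.35% of all IDs were called. The median changes of the members were 0.17 and 0.10, against 0.03 for all IDs on both days. All 4 *mll1/2*(RNAi) libraries lay above all 4 controls for 16 members on day 9, against 8.87% of all IDs, and below them for 3, against 7.69%. On day 12 they lay above for 12, against 7.94%, and below for 6, against 6.93%. All 5 members called lower on day 9 and all 4 called lower on day 12 were worm-rich, as were 28 of the 93 tested. That class was defined by high values in these same controls, so class and calls are not independent. The worm-rich share of all IDs called lower is not given, and other worm-rich members were called higher. There were 2 members called lower on both days, against 332 of 18443 IDs, and 4 called higher on both days, against 231 IDs. Changes of the called members ranged from -1.09 to 0.82 on day 9 and from -1.89 to 0.67 on day 12. On day 12 the deviations of same-numbered *mll1/2*(RNAi) and *unc22*(RNAi) libraries correlated in all 4 pairs (0.170 to 0.407), but for replicates 1 and 3 another number correlated more strongly (0.472 and 0.356). With the replicate number as a block 5 members were called higher and 6 lower.

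Single libraries changed these counts. The 18 calls of day 9 became 9 without *mll1/2*(RNAi) replicate 2, and omission of control replicate 1 or 2 left counts of 4 and 6. On day 12, where 10 members were called, omission of *mll1/2*(RNAi) replicates 1, 2, 3 and 4 in turn left 3, 4, 2 and 3 calls. Omission of *unc22*(RNAi) replicate 2 or 3 left 3, and with replicate 1 omitted 9 members were higher and 1 lower. Median scaling left 2 members higher and 4 lower on day 12. The member median by library was 0.26, 0.13, 0.08 and -0.01 on day 9 after *mll1/2*(RNAi), against -0.06, -0.07, 0.04 and -0.08 after *unc22*(RNAi), and the groups overlapped. On day 12 it was 0.14, 0.09, 0.10 and 0.15 after *mll1/2*(RNAi), against 0.39, -0.02, -0.08 and -0.03 after *unc22*(RNAi). Control replicate 1, at 0.39, lay above all 4 knockdown libraries and the other controls below them. The same library had the highest summed level of worm-rich IDs that were not members, 387188 RPKM, against 244000 to 270986 RPKM in the other controls of that day.

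In all, 96 of the 164 members (58.5%) were called in none of the 6 comparisons outside *set1* X1 cells, against 34.7% of the 12231 IDs. Fewer members than IDs were tested in whole worms, 53.0% against 91.1% in the *set1* experiment and 56.7% against 91.5% in the *mll1/2* experiment.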

How the data were processed

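PolyA RNA of 64 libraries was sequenced by the authors, who deposited 4 tables of RPKM values, 1 for each knockdown and tissue. The submitters' processing notes name CASAVA 1.8.2, Bowtie and edgeR. For their roles, the reference and the counting rules, the sources used here give nothing. All columns were mapped to groups from the labels, but those of *set1* X1 cells carry no sample number and are called libraries a to d. Whole reads were recovered from the RPKM steps (100% of values within 0.01 reads), which gave depth and transcript length. The lowest chi-square per degree of freedom between replicates was 1.73 over 96 pairs, so none was counted as a duplicate.

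The deposited RPKM values were tested as log2(RPKM + 0.5), for IDs with a mean of at least 1 RPKM in the table, with limma 3.58.1 in R 4.3.3. All 4 groups of a table shared 1 estimate of spread, with Benjamini-Hochberg adjustment over every ID in that table. Fold changes on this scale understate the change of low transcripts. Python 3.11.15 with pandas 2.3.3 was used for the rest. The procedure was tested on simulated data. Members and lists were chosen with earlier results of these data known. Since no annotation was used, 4 IDs were named by rule: the largest mean whole-worm rise after *set1*(RNAi) among members called on day 9 without overlap, the highest X1 control level in the *mll1/2* experiment, and the lowest mean change among members called lower in *mll1/2* X1 cells and in *set1* whole worms.

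Pairing by replicate number was checked by the correlation of deviations from the group means. It exceeded 0.1 in all 4 pairs only in *mll1/2* whole worms of day 12 (0.170, 0.252, 0.174 and 0.407), although for replicates 1 and 3 a library of another number correlated more strongly (0.472 and 0.356). Alternatives were the pseudocount, the filter, quantile and median scaling, library weights, removal of the length trend, voom on recovered reads, separate fits, the replicate block and leaving out each library. Leaving out the 3 *unc22*(RNAi) libraries that stand apart was chosen after seeing the data.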

Additional observations from a re-analysis of the deposited data

Results flagged for a closer look

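Groups of 4 libraries were searched for a library far from the other 3, in 80 groups, and chance flags about 5% of such groups. The median of the members was 0.13 in *unc22*(RNAi) X1 replicate 4 of day 12 in the *mll1/2* experiment, against -0.000973 to 0.02 in the other replicates. It was 0.39 in *unc22*(RNAi) whole-worm replicate 1 of day 12 of that experiment, against -0.08 to -0.02 in the others. SMED30011925 had 0.721 RPKM in *unc22*(RNAi) X1 library c of day 6 in the *set1* experiment, against 0.177 to 0.246 RPKM in the others. SMED30027307 had 11.3 RPKM in *unc22*(RNAi) X1 library a of that day, against 1.48 to 2.68 RPKM. The same transcript had 604 RPKM in *set1*(RNAi) whole-worm replicate 1 of day 6, against 508 to 516 RPKM, and 547 RPKM in *unc22*(RNAi) replicate 2, against 536 to 537 RPKM. In *unc22*(RNAi) whole-worm replicate 3 of day 9 in the *mll1/2* experiment it had 610 RPKM, against 471 to 490 RPKM. SMED30028981 had 0.340 RPKM in *set1*(RNAi) whole-worm replicate 4 of day 9, against 0.980 to 1.11 RPKM.

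By the limma interaction term, the knockdown effect differed between the days for 14 members in *set1* whole worms and for 4 members in *mll1/2* X1 cells. For SMED30011925 the whole-worm difference was 0.98 (limma adjusted p = 0.0383).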

How the results depend on the processing

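In whole worms of the *set1* experiment the counts of members called stayed within 1.5 times under all alternatives run. They were 18 to 29 on day 6, 38 to 62 on day 9 and 10 to 16 for the difference between the days. In X1 cells of that experiment they were 123 to 149 on day 6 and 134 to 157 on day 9. Those X1 counts follow from the choice of members, a list kept the same in every alternative, and do not show stability. The counts of the *mll1/2* experiment moved more. In X1 cells of day 9 the 5 calls became 9 with quantile normalisation, 17 with library weights, 9 with the length trend removed, 8 with the groups compared only, 2 with the replicate block and 8 without the 3 libraries that stand apart, with 1 to 8 when 1 library was left out. On day 12 the 13 calls became 7 with no filter, 23 with library weights, 7 with the groups compared only, 8 with the replicate block and 4 without the 3 libraries, with 5 to 16 when 1 library was left out. For the difference between these days the 4 calls became 0 with no filter, 24 with library weights, 0 with the length trend removed, 0 with the replicate block and 0 without the 3 libraries, with 0 to 14 when 1 library was left out. Between *unc22*(RNAi) X1 cells of day 12 and day 9 the 11 calls became 6 with no filter, 30 with library weights, 0 with the groups compared only, 7 with the replicate block and 0 without the 3 libraries, with 0 to 28 when 1 library was left out. In whole worms the 18 calls of day 9 became 37 with library weights, and 4 to 18 when 1 library was left out. The 10 calls of day 12 became 5 with no filter, 6 with median scaling, 39 with library weights and 4 with the groups compared only, and 2 to 10 when 1 library was left out. The fits without the 3 libraries keep 1 control on day 12, and the 2 contrasts between the days then called no ID at all. The cause of the other shifts was not tested. Shares of all IDs called under the alternatives are not given here, so the shifts cannot be read as particular to the members.

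With the replicate block the *set1* whole-worm counts were 23 on day 6, 45 on day 9 and 14 for the difference, and the *mll1/2* whole-worm counts were 15 on day 9 and 11 on day 12. For *set1* X1 cells alone, no paired analysis was possible because their columns carry no sample numbers. No change of a named transcript that passed its test changed sign. The median change of the members did change sign in *mll1/2* X1 cells of day 12, from -0.05 to 0.14 with the length trend removed. It also did so between *unc22*(RNAi) whole worms of day 9 and day 6 in the *set1* experiment, from -0.01 to 0.01 without replicate 3 of day 6. Over the alternatives of comparisons in which a named transcript was called, the call was kept in 197 and lost in 48. Where it was not called, it stayed so in 625 and was called in 11. A median member had 11 to 28 reads in a whole-worm library, which limits the precision of any single member.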
